A study of Mus musculus with 20 samples.

Results

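Accessible sites inside protein-coding genes and away from their ends were followed across 9 CTCF mutants and the WT control. A peak of the WT list belonged to this set, called gene-body peaks here, when it overlapped a protein-coding gene of the RefSeq gene table for GRCm38.p6 (the mm10 chromosomes) and lay more than 1 kb from every end of a protein-coding gene on chromosomes 1 to 19. By this rule 82938 of the 171719 WT peaks were gene-body peaks. The other WT peaks on these chromosomes were 21409 gene-end peaks, within 1 kb of a gene end, and 64095 intergenic peaks. The sites came from Omni-ATAC-seq, in which a transposase inserts adapters into accessible DNA, on E14Tg2a mouse embryonic stem cells of strain 129/Ola. The 10 genotypes, with 2 replicates each, expressed a Ctcf transgene carrying R339Q, R342C, S354F, K365T, R377C, R377H, Q418R, R448Q or H455R, or the WT sequence. All of them, WT included, carried the degron on their own CTCF and had been treated for 2 days with 500 µM indole-3-acetic acid, which removes that CTCF, and with 1 µg/ml doxycycline, which switches on the transgene. Each genotype was its own derived line, so the substitution cannot be told apart from other differences between lines, and the labels do not say whether the 2 replicates were separate cultures.

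CTCF is a DNA-binding protein whose zinc fingers read a long motif, and together with the ring-shaped cohesin complex it anchors chromatin loops. The 9 substitutions lie in or beside the third to the seventh finger, which read the core of the motif (this placement is general knowledge and is not in the labels). Inside genes, accessible sites are mostly enhancers, CTCF sites and alternative transcript starts, and long genes hold many of them. An enhancer in an intron may serve its host gene or a distant one. Starts rich in CpG dinucleotides, known as CpG islands, stay accessible in most cell types, whereas CpG-poor sites depend more on the factors bound in a given cell.

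The authors deposited 1 peak list per genotype, made from both replicates, so the spread between replicates is unknown, genotypes could not be tested against each other and no p-value is given. Intervals are exact 95% binomial (Clopper-Pearson) intervals or 95% counting intervals. They treat peaks as independent and cover counting error only, although peaks of 1 gene share that gene and its chromosome. A WT peak counted as found in a mutant list when at least 1 bp overlapped a peak there, and as missing otherwise. Peak strength is the authors' own value per peak, a fold enrichment over background. Shares "at equal strength" were averaged over 20 strength bins of WT peaks, weighted as the gene-body peaks are spread over them.

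The lists differed in depth. Background coverage, a depth read from the steps of the fold values, was 3.49 to 5.45 in the mutant lists and 5.96 in the WT list, and the lists held 121032 to 159957 peaks in mutants and 171719 in WT. Only 19.8% (S354F) to 30.2% (H455R) of the fold values of a list lay on its steps, so this coverage is an estimate. The part of depth in the shares below was not tested. On 9 chromosomes at least 1 list had a segment of shifted peak number, as a gain or loss of copies gives. In the chromosome 17 segment from 70 to 95 Mb the WT list itself held fewer peaks than most lists. Main values for the 10 chromosomes without such segments are given below. Of 23 naive pluripotency genes in the gene table, markers of the labelled cell type, 16 held WT gene-body peaks, 211 in all, and Sox2, Klf2, Tcl1, Dppa5a, Fgf4, Utf1 and Tdgf1 held none. Of 10 fibroblast genes 6 held 29 peaks, of 8 trophoblast genes 7 held 19, and of 10 primitive endoderm genes 9 held 86. A peak inside a gene is not a measure of its RNA, and these counts do not identify the cell type.

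Since the gene table gives no transcript starts, a gene-body peak can lie on an alternative start, and those are the gene-body sites whose sequence could be read. Among the 82938 gene-body peaks, 1570 overlapped a 300-base promoter window (250 bases before to 50 after a transcript start, RefSeq, GRCm38.p6) of a protein-coding gene. Of 1407 host genes, 6 are shown because they span the outcomes described below: windows under strong peaks that every mutant list held, and the windows under the 3 strongest such peaks that no mutant list held. Capitals mark CpG dinucleotides. The window of St7, a candidate tumour suppressor gene, lies at chr6:17748920-17749219 on the plus strand and under the second strongest of all gene-body peaks. The windows of 1110004F10Rik (chr7:116093130-116093429, plus strand) and of Ddx50, a nucleolar RNA helicase gene (chr10:62651169-62651468, minus strand), lie under the 2 strongest peaks found in all 9 mutant lists whose window holds 24 or more CpG.
St7: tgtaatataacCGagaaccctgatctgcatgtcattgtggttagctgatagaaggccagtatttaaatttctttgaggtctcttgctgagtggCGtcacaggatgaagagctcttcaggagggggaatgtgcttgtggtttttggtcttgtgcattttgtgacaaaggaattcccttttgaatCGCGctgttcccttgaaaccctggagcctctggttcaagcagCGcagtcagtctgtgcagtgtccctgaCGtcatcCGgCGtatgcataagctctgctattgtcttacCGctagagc
1110004F10Rik: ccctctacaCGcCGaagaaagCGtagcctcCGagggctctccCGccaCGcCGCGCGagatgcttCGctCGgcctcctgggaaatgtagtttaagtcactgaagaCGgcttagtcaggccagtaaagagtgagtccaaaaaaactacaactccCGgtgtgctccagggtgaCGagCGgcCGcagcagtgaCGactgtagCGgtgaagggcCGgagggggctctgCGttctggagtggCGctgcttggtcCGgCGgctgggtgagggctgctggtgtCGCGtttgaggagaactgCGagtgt
Ddx50: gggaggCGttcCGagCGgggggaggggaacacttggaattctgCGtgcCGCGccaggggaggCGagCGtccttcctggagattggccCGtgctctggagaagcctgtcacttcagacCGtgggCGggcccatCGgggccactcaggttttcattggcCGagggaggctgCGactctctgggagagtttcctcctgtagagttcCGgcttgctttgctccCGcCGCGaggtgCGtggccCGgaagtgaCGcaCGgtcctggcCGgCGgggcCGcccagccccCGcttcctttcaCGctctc
The windows of Gtsf2 (chr15:103448410-103448709, minus strand), of Pgf, which encodes placental growth factor (chr12:85175933-85176232, minus strand), and of Tecta, which encodes an extracellular protein of the inner ear (chr9:42399898-42400197, minus strand), lie under peaks missing from all 9 mutant lists.
Gtsf2: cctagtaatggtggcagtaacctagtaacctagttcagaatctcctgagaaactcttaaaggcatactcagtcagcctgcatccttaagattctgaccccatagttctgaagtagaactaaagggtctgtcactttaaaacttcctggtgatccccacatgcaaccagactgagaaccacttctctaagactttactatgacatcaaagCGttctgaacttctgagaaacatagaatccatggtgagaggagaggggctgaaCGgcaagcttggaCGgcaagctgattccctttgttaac
Pgf: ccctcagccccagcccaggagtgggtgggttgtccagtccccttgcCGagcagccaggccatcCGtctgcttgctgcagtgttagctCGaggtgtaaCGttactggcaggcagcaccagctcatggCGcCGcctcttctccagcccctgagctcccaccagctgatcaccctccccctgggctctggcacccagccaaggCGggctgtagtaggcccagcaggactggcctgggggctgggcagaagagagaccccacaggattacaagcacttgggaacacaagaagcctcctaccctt
Tecta: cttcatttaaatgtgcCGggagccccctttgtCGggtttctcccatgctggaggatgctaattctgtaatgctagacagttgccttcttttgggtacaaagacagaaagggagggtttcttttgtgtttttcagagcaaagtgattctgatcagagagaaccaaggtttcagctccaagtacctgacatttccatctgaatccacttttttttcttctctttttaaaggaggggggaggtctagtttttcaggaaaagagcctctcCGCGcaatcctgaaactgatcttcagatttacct
The first window had 9 CpG and the other windows of the first set 26 and 27, whereas the windows of the second set had 3, 7 and 4.

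The St7 peak had a fold of 20.9 in R339Q, 25.0 in R342C, 24.8 in S354F, 25.6 in K365T, 23.6 in R377C, 24.5 in R377H, 19.3 in Q418R, 25.1 in R448Q and 27.9 in H455R, against 28.7 in WT. The Ddx50 peak ran from 20.7 to 23.5 in the mutant lists, against 23.3 in WT, and the 1110004F10Rik peak from 21.4 to 25.6, against 24.9 in WT. These 3 peaks were strong in WT and stayed strong in each list. The Gtsf2, Pgf and Tecta peaks were much weaker already in WT, with folds of 4.45, 3.86 and 3.59. These stood at percentiles 46.5, 34.6 and 28.6 of the WT peaks, and the median fold of gene-body peaks over a coding promoter window was 8.05. Fold values of different lists rest on different depths, so they describe where a peak stood in its own list.

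Gene-body peaks were weaker and narrower than gene-end peaks. Their median WT fold was 4.40, against 6.47 at gene ends and 4.74 between genes, and they were about as wide as intergenic peaks, with a median of 387 bp there and 707 bp at gene ends. They covered 38.1 Mb in 12082 of the 20661 protein-coding genes of these chromosomes, with a median of 4 and a maximum of 128 peaks in genes that held any. Of the 82938 peaks, 82255 lay in 1 protein-coding gene and 683 in several.

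In all 9 mutant lists 35204 gene-body peaks were found, 42.4%, against 73.2% of gene-end peaks, 48.0% of intergenic peaks and 48.5% of all WT peaks. At the other end 5536 gene-body peaks, 6.67%, were in no mutant list, against 2.47% at gene ends, 4.79% between genes and 5.42% of all WT peaks. Stronger gene-body peaks were held by more mutant lists, with a median WT fold of 3.11 for peaks in no mutant list, 3.59 for peaks in 5 and 6.99 for peaks in all 9. The median width was 229, 294 and 574 bp for the same 3 sets. Between 5.44% and 9.28% of gene-body peaks were found in each number of lists from 1 to 8, against 4.85% to 8.81% of all WT peaks.

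Retention of gene-body peaks differed between mutants. The R339Q list missed 33112 of the 82938 peaks, 39.9%, where 35.1% of all WT peaks were missing, and so held 60.1% (95% interval 59.7 to 60.4). In the Q418R list 36.1% were missing, against 30.9% of all WT peaks, and in the R448Q list 33.3%, against 27.7%. K365T missed 32.5%, against 28.3% of all WT peaks. For R377H and R342C the missing shares were nearly equal, 29.8% each, against 26.0% and 26.1% of all WT peaks. S354F missed 27.2%, against 24.3% of all WT peaks, and R377C 23.4%, against 20.9%. The H455R list missed the fewest, 18056 peaks or 21.8%, against 19.3% of all WT peaks, and held 78.2% (77.9 to 78.5). In each of the 9 lists the missing share of gene-body peaks was above that of all WT peaks, and gene-body peaks are also weaker than the others. On the 10 chromosomes without shifted segments the share found was 64.0% in R448Q, 65.9% in K365T and 64.7% in Q418R, against 66.7%, 67.5% and 63.9% on all 19, so R448Q stood below Q418R there. The other 6 mutants moved by less than 1 point. With all lists, WT included, cut to the same number of strongest peaks, the order of the mutants changed. R448Q was then lowest at 73.4%, with R339Q at 74.6%. R377C, at 82.1%, and S354F, at 81.8%, then stood above H455R, at 81.5%.

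**Figure D1:**
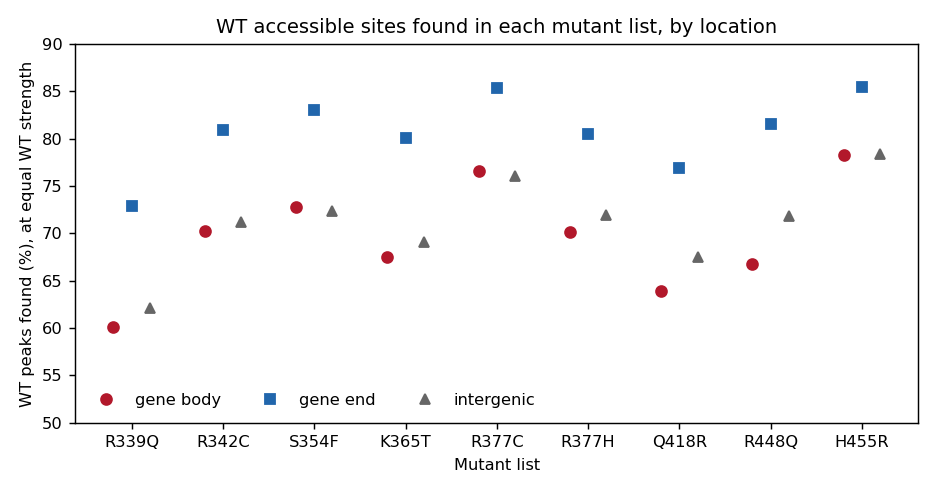
Share of WT peaks found in each mutant list (vertical axis, %) for gene-body, gene-end and intergenic WT peaks at equal WT strength, 1 point per class and mutant. Gene-end peaks stand above both other classes in all 9 lists, while gene-body minus intergenic ran only from -5.16 to 0.57 percentage points.

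At equal strength, gene-body peaks were found less often than gene-end peaks in every mutant. The difference ran from -7.25 percentage points in H455R (counting interval -7.84 to -6.66) to -14.8 in R448Q (-15.5 to -14.2), with a median of -10.7. Width moved with this difference: when peaks were matched on width as well as strength, the median difference was -5.91 points. Against intergenic peaks the difference was small and its sign varied. It was -5.16 points in R448Q (-5.59 to -4.73), -3.69 in Q418R, -2.06 in R339Q, -1.70 in R377H, -1.67 in K365T and -0.95 in R342C. In R377C gene-body peaks were found more often, by 0.57 points (0.17 to 0.97). The intervals of S354F, at 0.38 (-0.04 to 0.79), and of H455R, at -0.20 (-0.59 to 0.19), held 0. On the 10 chromosomes without shifted segments the R448Q and Q418R differences were -4.97 and -3.56 points.

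Most of the loss lay among weak peaks. In the weakest of 5 strength classes of WT peaks (fold 1.48 to 3.27), 7.19% of gene-body peaks were found in all 9 mutant lists, against 17.7% of gene-end and 8.77% of intergenic peaks. In the middle class (fold 4.09 to 5.46) the shares were 37.9% in gene bodies, 69.1% at gene ends and 39.4% between genes. In the strongest class (fold from 8.37) they were 96.8%, 99.8% and 97.0%. The mutants also differed among strong gene-body peaks. Of the 13034 in the strongest class, the R339Q list missed 173, R448Q 157, Q418R 82, K365T 46, R377H 37, R342C 33, S354F 23, H455R 18 and R377C 5. R448Q missed nearly as many strong gene-body peaks as R339Q, although its list missed fewer peaks in all. Missing counts by mutant were not taken for the other WT peaks of this class, so these counts do not single out gene bodies.

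Single strong peaks missing from 1 list only were named by strength. The strongest gene-body peak missing from R339Q alone lies in Dkk2, which encodes a secreted Wnt antagonist (chr3:132154868-132155519). Its fold was 3.46 in R342C, 4.26 in S354F, 9.58 in K365T, 5.78 in R377C, 6.51 in R377H, 11.3 in Q418R, 4.19 in R448Q and 6.53 in H455R, against 15.5 in WT, so every mutant list that held it had it below the WT fold. The one missing from R448Q alone lies in Gnai1, an inhibitory G protein alpha subunit gene (chr5:18321520-18322042). It had a fold of 3.75 to 12.5 in the other 8 mutant lists, against 14.1 in WT. A peak in Rap1gap2, a GTPase-activating protein gene (chr11:74548784-74549277), was missing from S354F alone. There the other mutant lists, at 9.83 to 13.4, lay on both sides of the WT fold of 11.9. A peak in Spink13 missing from H455R alone (chr18:62685397-62685748) ran from 4.54 in R377H to 16.1 in Q418R, against 13.5 in WT. The peak in Kat6a, a histone acetyltransferase gene, missing from R377H alone (chr8:22866320-22866819) had 4.65 to 7.59 in the other mutant lists, against 13.5 in WT. These peaks were chosen after their values were seen.

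The 5 strongest gene-body peaks were held by all 10 lists. They lie in Psd3, an Arf exchange factor gene (chr8:67930862-67931347), St7, Npffr2, a neuropeptide receptor gene (chr5:89559060-89559616), Nrxn3, which encodes a presynaptic neurexin (chr12:88910723-88911172), and Ctnna2, a neuronal alpha-catenin gene (chr6:77191596-77192215). The Nrxn3 peak had the widest spread, with a fold of 17.6 in R339Q, 24.7 in R342C, 25.2 in S354F, 23.2 in K365T, 24.4 in R377C, 23.9 in R377H, 23.4 in Q418R, 29.7 in R448Q and 26.5 in H455R, against 27.9 in WT. It was lowest in R339Q and highest in R448Q. The Npffr2 peak kept within 22.98 to 28.5 in mutants, against 27.9 in WT. Of the 5, only the St7 peak overlapped a listed promoter window.

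Gene length was the property of the host gene that moved most with retention. At equal strength, the median over the 9 mutants of the share found was 75.5% in genes under 20 kb (7140 peaks in 3752 genes), 70.9% from 20 to 50 kb, 69.8% from 50 to 100 kb, 69.7% from 100 to 200 kb, 68.4% from 200 to 500 kb and 66.5% in genes of 500 kb and over (5369 peaks in 207 genes). The fall was steepest at the first step and at the last. Without matching, the mean shares were nearly level, 70.5% in the longest and 70.6% in the shortest genes, and the median WT fold was 4.89 in the longest class and 3.99 in the shortest. The difference between the longest and the shortest class was below 0 in all 9 mutants.

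By mutant, the longest class stood below the shortest by -12.8 percentage points in Q418R (counting interval -14.3 to -11.4), -11.5 in R377C, -11.5 in R342C, -10.2 in R339Q, -9.63 in S354F, -9.30 in K365T, -8.84 in R377H, -6.79 in H455R and -6.16 in R448Q (-7.68 to -4.64). In R448Q the share was 66.5% in the longest genes, against 65.4% in the class below, so the last step went the other way there. The median difference, -9.63 points, was -4.75 when peaks were also matched on width, -6.46 when all lists were cut to the same number of strongest peaks, and -2.66 when only the stronger 80% of each mutant list was searched. The sign was the same in all 117 values over mutants and alternatives, which reuse the same lists. The smallest, -0.02, was R448Q with the stronger 80% searched, where H455R stood at -0.66. Their counting half-widths were 1.48 and 1.36, so both intervals held 0. Peaks over a promoter window were more common in short genes, with 1.62% of peaks in the longest class and 5.42% under 20 kb, and leaving them out gave a median of -9.45 points.

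**Figure D2:**
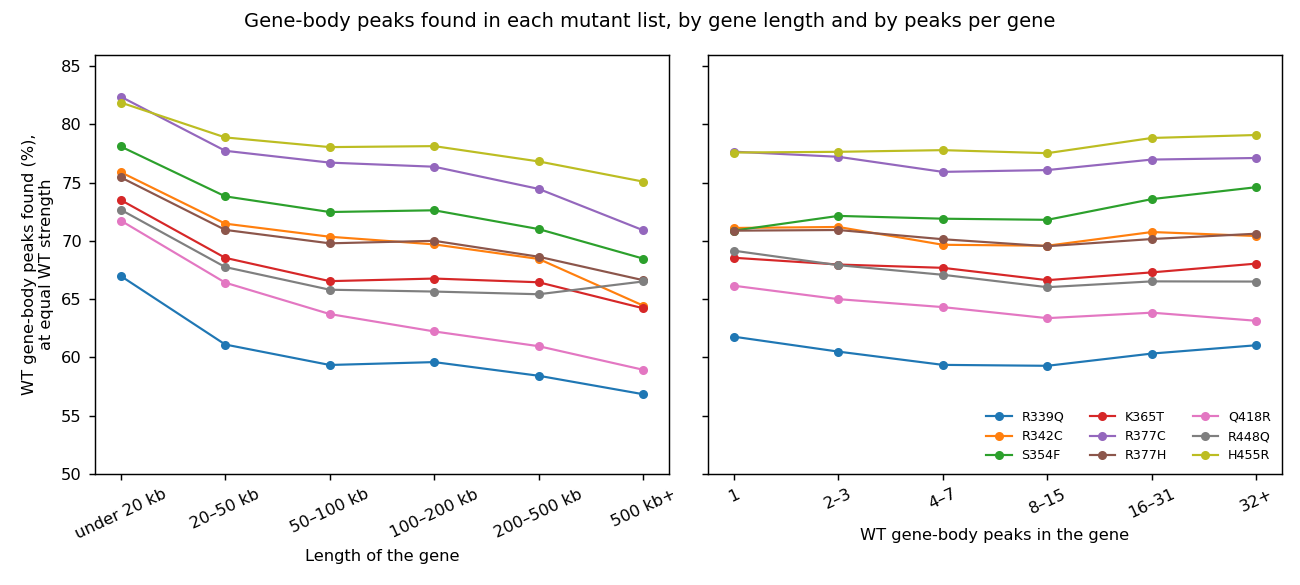
Share of gene-body peaks found in each of the 9 mutant lists at equal WT strength (vertical axis, %), by length of the gene (left) and by number of WT gene-body peaks in it (right), 1 line per mutant. The lines fall from short to long genes and stay nearly level across peaks per gene.

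By peaks per gene the shares were nearly level. The median over mutants was 70.9% in genes with 1 gene-body peak, 70.9% with 2 to 3, 69.7% with 4 to 7, 69.5% with 8 to 15, 70.2% with 16 to 31 and 70.4% with 32 and over. Genes with 32 and over stood above genes with 1 by 3.73 percentage points in S354F (2.07 to 5.40), and below them by -3.01 in Q418R (-4.70 to -1.32) and -2.65 in R448Q (-4.37 to -0.93). In the other 6 mutants the interval held 0, with values from -0.74 in R339Q to 1.51 in H455R. The sign of the median changed with the distance from gene ends and with the strength of the peaks searched. Since a gene with many peaks has more chances to lose one, whole genes look different: of the 2630 genes with 1 peak 45.2% kept it in all 9 lists, of the 3275 genes with 2 to 3 peaks 14.2% kept all, of the 3000 with 4 to 7 peaks 2.07%, of the 1887 with 8 to 15 peaks 1 gene, and of the 964 and 326 genes in the 2 classes above none.

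Length and peaks per gene are tied, since the median length was 268 kb in genes with 32 peaks and over and 13.1 kb in genes with 1, so each was read within classes of the other. Within a length class, retention was higher where genes held more peaks. In genes of 20 to 50 kb the median share found was 74.1% with 8 to 15 peaks and 66.0% with 1, and in genes of 50 to 100 kb it was 73.5% with 16 to 31 peaks and 63.4% with 2 to 3, with the difference above 0 in 9 of 9 mutants in both. In genes of 200 to 500 kb and of 500 kb and over the difference was above 0 in 7 of 9 mutants. Among genes with the same number of peaks, retention was lower in longer genes. With 4 to 7 peaks it was 67.0% at 200 to 500 kb and 76.9% under 20 kb, lower in 9 of 9 mutants, and with 32 and over 66.3% at 500 kb and over and 74.2% at 100 to 200 kb, again in 9 of 9. The 2 patterns run against each other over all genes, where the peak number alone showed little.

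**Figure D3:**
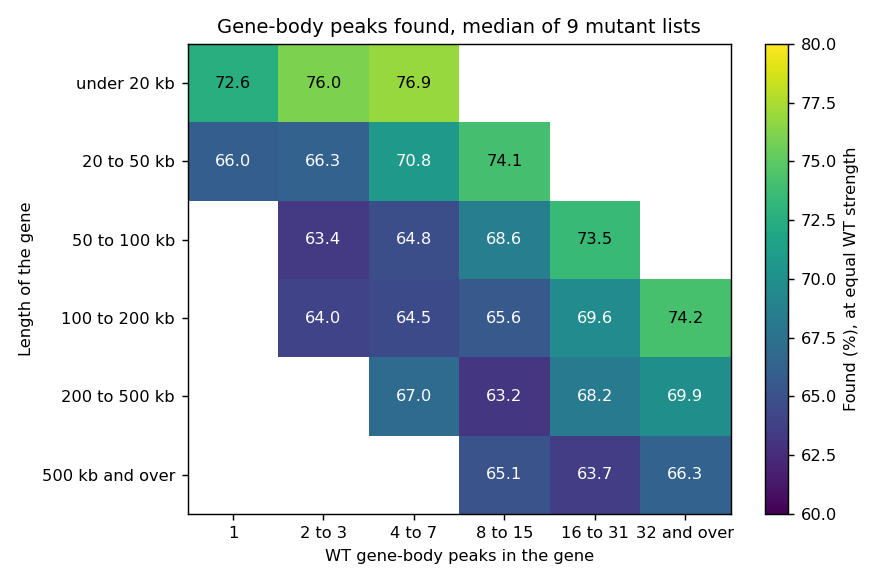
Median over the 9 mutants of the share of gene-body peaks found at equal WT strength (colour and printed value, %), by length of the gene (down) and WT gene-body peaks in it (across). Values go up to the right within most rows and down within most columns, from 76.9% in short genes with 4 to 7 peaks to 63.2% in genes of 200 to 500 kb with 8 to 15.

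Distance to the nearest gene end, spacing and width of the peaks moved with retention as well. At equal strength the median share found was 75.1% for gene-body peaks 1 to 5 kb from a gene end, 69.9% from 5 to 20 kb, 68.9% from 20 to 50 kb, 69.0% from 50 to 100 kb and 64.7% at 100 kb and over. Within 1 to 5 kb of an end it was 74.8% in genes of 200 to 500 kb and 76.7% in genes under 20 kb, and for peaks 5 to 20 kb from an end 68.4% at 200 to 500 kb and 72.2% under 20 kb. In genes of 200 to 500 kb it was 65.5% at 100 kb and over from an end and 74.8% at 1 to 5 kb. Between these length classes the difference over all distances was 68.4% against 75.5%.

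Gene-body peaks with another WT peak under 1 kb away were found at a median of 73.8%, those 1 to 5 kb from the next at 69.3%, at 5 to 20 kb 62.8% and at 20 kb and over 63.7%. Of the found peaks with a neighbour under 1 kb away, 5.64% (K365T) to 14.7% (S354F) were overlapped by a mutant peak that spanned at least 1 other WT peak, and 0% at larger spacing. Width had the widest range of all: at equal strength 97.2% of peaks of 1000 bp and over were found and 56.8% of peaks under 300 bp. The part of overlap length in this range was not tested. With only the middle of each WT peak searched, the same short length for all, the share over all widths of gene-body peaks found was 68.8%, against 70.2% with whole peaks (medians over mutants).

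Gene-body peaks over alternative starts were kept more often than the other gene-body peaks. At equal strength the median share found was 86.8% for the 1570 peaks over a coding promoter window, 79.3% for 507 peaks over a noncoding one and 70.0% for the 80861 peaks over neither, against 91.0% for gene-end peaks over a coding promoter window. By mutant the first class ran from 80.6% in Q418R to 91.3% in H455R, and it stood above the class with no window in all 9 lists. In all 9 lists 1376 of the 1570 were found, 87.6%, where 42.4% of all gene-body peaks were, and 15 were in none. Their median WT fold was 8.05 and their median width 808 bp, against 4.34 and 372 bp for peaks over no window.

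Retention of these internal starts moved with the CpG content of the window. The windows printed above were chosen by outcome, and 2 of them by CpG content, so they only illustrate it. With 0 to 5 CpG per 300 bases 204 of 282 peaks were found in all 9 lists, 72.3%, and with 6 to 11 CpG 268 of 343, 78.1%. With 12 to 23 CpG it was 462 of 483 and with 24 and over 442 of 462, 95.7% in both. The 15 peaks in no mutant list had 0 to 5 CpG in 10 cases and 6 to 11 in 5. Counted over 9 lists per peak, 99.1% of outcomes were found at 24 CpG and over, where all gene-body peaks of equal strength gave 89.3%, and 85.5% at 0 to 5 CpG, where they gave 80.4%. Median width was 1049 bp at 24 CpG and over and 535 bp at 0 to 5 CpG, and its part was not tested.

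**Figure D4:**
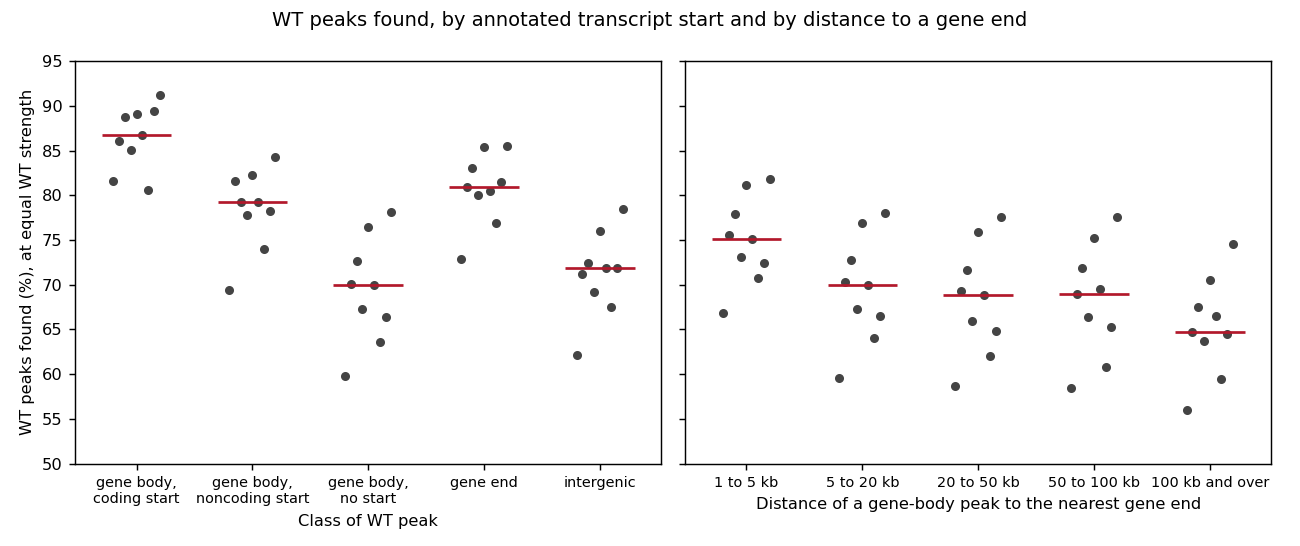
Share of WT peaks found at equal WT strength (vertical axis, %), 1 point per mutant with a line at the median, by class of peak (left) and, for gene-body peaks, by distance to the nearest gene end (right). Peaks over a coding start stand highest inside genes, at a median of 86.8%, and gene-body peaks at 100 kb and over lowest, at 64.7%.

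The genes with the most gene-body peaks were long, and they differed in how many peaks they kept. In these counts a missing outcome is 1 WT peak absent from 1 mutant list, and the expected share is that of gene-body peaks of the same WT strength. Gse1, which encodes a component of a corepressor complex (chr8:120228501-120581383), had 57 gene-body peaks in R339Q, 66 in R342C, 80 in S354F, 74 in K365T, 77 in R377C, 61 in R377H, 64 in Q418R, 86 in R448Q and 86 in H455R, against 90 in WT. Of its WT outcomes 26.2% were missing where 37.3% were expected, so it kept more peaks than their strength gives. It lies in a chromosome 8 segment (85 to 130 Mb) shifted up in H455R. Dst, a cytoskeletal linker gene (chr1:33907888-34308662), missed 23.9% where 32.4% were expected, and Msi2, a Musashi RNA-binding protein gene (chr11:88339382-88718306), 25.8% where 34.1% were expected. Msi2 lies in a chromosome 11 segment (80 to 95 Mb) where R377H peaks were shifted up, and R377H missed 21 of its peaks where 36.9 were expected. Dst and Msi2 held more peaks in R448Q, 98 and 97, than in R339Q, 69 and 77, against 104 and 110 in WT. Dst lies in a segment of chromosome 1 (0 to 70 Mb) where R448Q peaks were shifted up in number, and its part in that value was not tested.

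Dpp6, which encodes an auxiliary subunit of potassium channels (chr5:26817357-27727500), went the other way with 31.3% missing where 25.0% were expected. It had 57 gene-body peaks in Q418R and 72 to 79 in the other mutant lists, against 99 in WT. It lies in the chromosome 5 segment (0 to 40 Mb) where Q418R peaks were shifted down in number, and the part of that shift was not tested. Ptprg, a receptor phosphatase gene (chr14:11553440-12242041), missed 34.7% where 29.6% were expected, and Tenm4, a teneurin gene of neuronal adhesion (chr7:96171244-96911093), 33.6% where 30.3% were expected. Tenm4 held 75 peaks in R339Q and 110 in H455R, with the other mutants between, against 128 in WT. Tenm3, its paralog (chr8:48225665-49522824), held 64 peaks in R339Q, yet 115 in R448Q and 127 in H455R, both above the 103 in WT. It lies in a segment of chromosome 8 where both of these lists were shifted up in peak number. Magi1, Etl4 and Ttc28 completed the 10 genes, with 29.7%, 21.4% and 31.6% missing where 26.9%, 26.3% and 34.2% were expected.

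**Figure D5:**
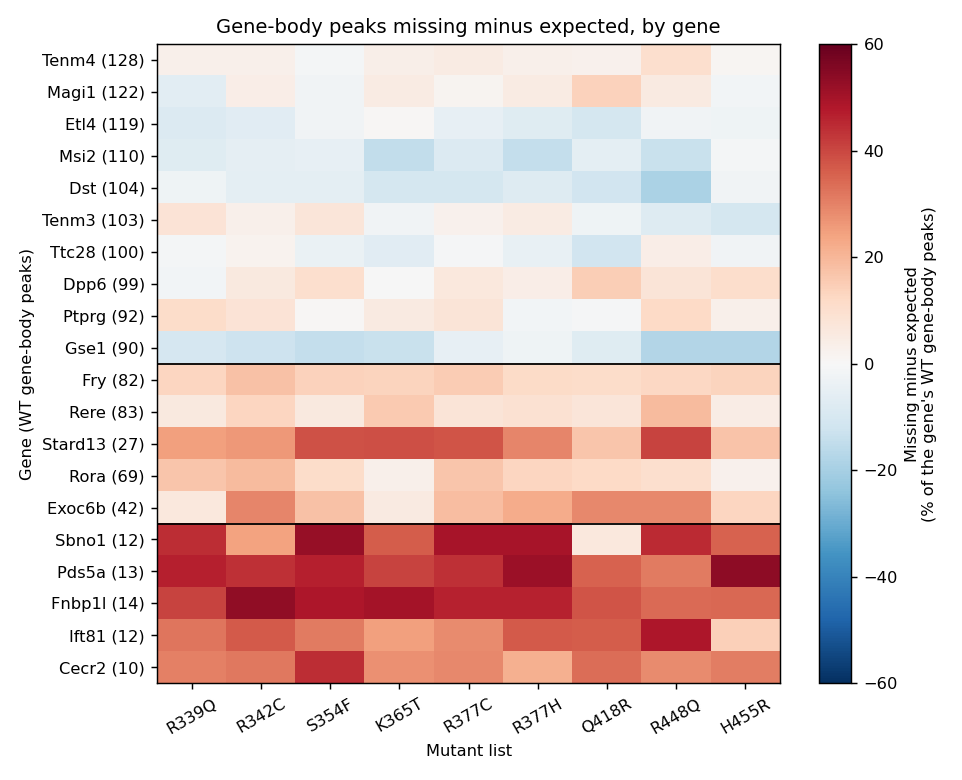
Missing minus expected gene-body peaks (colour, % of the WT gene-body peaks of the gene) for 20 genes (down, WT gene-body peaks in brackets) and 9 mutant lists (across). The upper block holds the 10 genes with the most peaks, the middle block the 5 with the largest excess and the lower block the 5 with the largest missing share, so the colours of the lower blocks follow from their choice.

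Among genes with at least 10 gene-body peaks, those that missed the most beyond expectation over the 9 lists were Fry, Rere, Stard13, Rora and Exoc6b. Being chosen for it, they are described and not tested. Fry, a large scaffold protein gene (chr5:150118618-150497753), had 41 gene-body peaks in R339Q, 47 in R342C, 53 in S354F, 49 in K365T, 54 in R377C, 57 in R377H, 46 in Q418R, 53 in R448Q and 60 in H455R, against 82 in WT. Of its outcomes 43.1% were missing where 29.6% were expected, and 15 of the 82 WT peaks were in none, where 6.69% of all gene-body peaks were. The mutant lists as a whole also held fewer gene-body peaks than WT, 54744 to 75971 against 82938. Fry lies outside the shifted part of chromosome 5 (0 to 40 Mb, in Q418R). Stard13 (chr5:151037515-151428200) lies on the same stretch of chromosome 5 and had 11 to 19 peaks in mutants, against 27 in WT. The cohesin gene Pds5b lies between them, and its peak at chr5:150751411-150751721, with a WT fold of 7.90, was the strongest gene-body peak missing from all 9 mutant lists. Another such peak, with a fold of 6.47, lies in Stard13 (chr5:151089206-151089505).

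Rere, which encodes an atrophin corepressor (chr4:150281511-150621966), held 43 peaks in K365T and in R448Q and 69 in H455R, with the other mutants between, against 83 in WT. Rora, a nuclear receptor gene (chr9:68653404-69388246), had 38 peaks in R339Q and 44 to 52 in the others except H455R, which had 74, against 69 in WT. It missed 38 of its WT peaks in R339Q, where 26.5 were expected, and 15 in H455R, where 13.3 were. Exoc6b, an exocyst subunit gene (chr6:84618486-85070258), had 17 peaks in Q418R, 18 in R448Q and 23 to 37 in the others, against 42 in WT. Most of it lies in the chromosome 6 segment (15 to 85 Mb) where Q418R peaks were shifted down in number. On the 10 chromosomes without shifted segments, Stag1, Csmd2 and Vps13b took the places of the genes on chromosomes 5 and 6.

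By mutant, the largest excess lay in a different gene for most. R339Q missed most beyond expectation in Rora. For R342C and R377C it was Fry, and for K365T Rere. In S354F it was Stag1, the cohesin subunit gene (chr9:100597709-100958544), with 26 of 42 peaks missing where 11.9 were expected. R377H had it in Csmd2, where 22 of 42 peaks were missing and 11.6 expected. In Q418R, Exoc4, an exocyst subunit gene (chr6:33249090-33973979), missed 44 of 70 peaks where 23.5 were expected, and it held 30 peaks there, 50 to 70 in the other mutant lists and 70 in WT. It lies in a segment of chromosome 6 (15 to 85 Mb) where Q418R peaks were shifted down in number. On unshifted chromosomes the gene for Q418R was Lpp, with 33 of 66 missing and 23.6 expected. R448Q had it in Nedd4l, a ubiquitin ligase gene (chr18:64884480-65217826), which held 31 peaks there and 42 to 60 in the other mutants, against 72 in WT. H455R had it in Bach2, a transcriptional repressor gene of B cells (chr4:32238413-32586109), with 31 of 54 missing and 13.6 expected. In Q418R the same gene missed 15, fewer than the 23.4 expected there.

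By share, the 5 genes that kept least were Sbno1, Pds5a, Fnbp1l, Ift81 and Cecr2, all on chromosomes 3, 5 or 6. Sbno1 (chr5:124368702-124426007) had 0 gene-body peaks in R339Q, 4 in R342C, 1 in S354F, 3 in K365T, 3 in R377C, 2 in R377H, 6 in Q418R, 1 in R448Q and 4 in H455R, against 12 in WT. Fnbp1l, which encodes a membrane-bending protein (chr3:122538719-122619714), had 2 to 7 in mutants, against 14 in WT, with 77.0% of outcomes missing where 33.6% were expected. In no mutant list were 7 of its 14 WT peaks, where 6.69% of all gene-body peaks were in none. Ift81, an intraflagellar transport gene (chr5:122540265-122614546), had 2 in R339Q, Q418R and R448Q, but 9 in R377C and 11 in H455R, against 12 in WT. Cecr2, a bromodomain gene (chr6:120666314-120771191), had 2 to 6 in mutants, against 10 in WT. At the other extreme, all 8 gene-body peaks of the semaphorin gene Sema4b (chr7:80186870-80226646) were found in all 9 lists. Its number of peaks was 9 to 11 in mutants, against 8 in WT. Arap1 (7 peaks), Adgrg3, Nsg2 and Rcc1l (6 each) likewise kept all. The WT strength of the peaks differs between these genes, since 23.7% missing was expected for Sema4b but 2.94% for Nsg2.

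Genes of cohesin and CTCF biology kept fewer gene-body peaks than their strength gives. The list held 15 genes with a gene-body peak and 136 peaks, of which 49.3% of outcomes were found where 67.3% were expected. Of the 136, 27 were found in all 9 lists, 19.9%, where 42.4% of all gene-body peaks were, and 28 in none, 20.6%, where 6.69% of all were. Stag1 had 18 gene-body peaks in R339Q, 21 in R342C, 15 in S354F, 22 in K365T, 24 in R377C, 25 in R377H, 24 in Q418R, 18 in R448Q and 33 in H455R, against 42 in WT. Pds5a, a cohesin-associated regulator gene (chr5:65605719-65698236), had 1 in R339Q, 2 in R377H, 4 in R342C, S354F, K365T, Q418R and R448Q, 5 in H455R and 6 in R377C, against 13 in WT. Pds5b, its paralog, had 7 in R339Q, 8 in R377H, 9 in R342C and R448Q, 11 in S354F, Q418R and H455R and 12 in K365T and R377C, against 19 in WT. Each of the 9 mutant lists held fewer peaks than WT in all 3 genes.

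Wapl, which encodes the cohesin release factor, had 4 to 7 in mutants, against 11 in WT, and missed 54.5% of outcomes where 22.9% were expected. Nipbl, the cohesin loader gene, missed 43.7% where 30.3% were expected, with 6 to 12 peaks in 8 mutants and 16 in H455R, against 14 in WT. Ctcf itself did not share this: it had 2 peaks in R339Q and 5 to 10 in the others, against 9 in WT, and missed 30 of 81 outcomes where 34.1 were expected. All lines also carried a Ctcf transgene, and its part in these peaks was not tested. Rad21 had 3 to 7 peaks, against 6 in WT. It missed 53.3% of outcomes where 50.5% were expected, and Yy1 53.3% where 48.3% were. Esco1, Esco2 and Vezf1, with 3 peaks each, were near expectation too. Zfp143 missed 68.9% where 46.2% were expected, Smc3 and Mau2 also missed more than expected, and Maz missed fewer. Without Stag1, Pds5a and Pds5b the other 12 genes held 63 peaks, with 55.0% of outcomes found where 65.1% were expected. These 12 still include Wapl and Nipbl. The list was set with earlier results of these data known. Pds5a and Pds5b lie on chromosome 5, outside its shifted segment. Shifts over fewer than 3 bins of 5 Mb were not called, so a shorter one would not show.

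Pluripotency genes kept more of their gene-body peaks than expected. For naive pluripotency, 16 genes held 211 peaks with 70.4% of outcomes found where 60.8% were expected, while 44.5% of peaks were in all 9 lists, near the 42.4% of all gene-body peaks, and 8.53% in none, against 6.69% of all. Esrrb, an orphan nuclear receptor gene, missed 18.7% of outcomes over 38 peaks where 33.2% were expected, and Tfcp2l1 16.3% over 15 peaks where 44.3% were. Nr5a2 missed 33.3% where 42.2% were expected. Tet1, a DNA demethylation gene, and Jarid2, a Polycomb cofactor gene, were near expectation, with 42.2% and 37.0% missing where 43.1% and 36.6% were expected. The formative and primed list, 54 peaks, found 78.0% where 68.7% were expected, with Dnmt3a and Lef1 at 21.7% missing each where 33.9% and 26.9% were expected.

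LIF signalling supports naive pluripotency, while FGF and ERK signalling drives the exit from it. Genes of these pathways together found 71.6% of outcomes over 285 peaks where 66.8% were expected. The LIF receptor gene Lifr missed 15.1% where 34.9% were expected and the ERK target Etv5 10.5% where 36.2% were, while the kinase gene Braf missed 49.2% where 38.8% were. The culture held leukemia inhibitory factor, the MEK inhibitor PD0325901 and the GSK3 inhibitor CHIR99021. In the Wnt list, 352 peaks, 70.0% were found where 67.0% were expected. Axin2, a feedback target, missed 20.6% where 44.9% were expected, and Tcf7l1, the repressive partner of beta-catenin, 22.2% where 37.2% were, whereas Gsk3b missed 33.7% where 30.8% were.

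Long neuronal genes went below expectation. The list of synaptic adhesion and long neuronal genes, 57 genes with a median length of 1108 kb, held 1625 peaks, with 70.2% of outcomes found where 74.3% were expected. Its peaks were stronger than most, with a median fold of 4.89, so its plain share was close to the 69.6% of all gene-body peaks. Nrg1, a growth factor gene, missed 45.0% where 28.5% were expected, and Ptprd, a synaptic phosphatase gene, 39.6% where 22.7% were. Chromatin remodeller genes found 64.2% where 67.4% were expected. Among them Chd2 missed 48.8% where 35.1% were expected, Baz1b 61.6% where 38.8% were and Ep400 61.1% where 37.1% were. Chd7 went the other way, with 24.7% missing where 33.3% were expected. Histone and DNA methylation genes found 65.9% where 65.1% were expected and actin and adhesion genes 70.4% where 70.1% were, both close to expectation.

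Among markers of other cell types, fibroblast genes had 29 gene-body peaks, of which 19 lay in Fn1, and 68.2% of outcomes were found where 60.2% were expected. Trophoblast genes, with 19 peaks, found 68.4% where 65.8% were expected, and primitive endoderm genes, with 86 peaks, 70.9% where 69.1% were.

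Mutant lists also held gene-body peaks with no WT overlap. They were 7.75% of the gene-body peaks in R339Q, where 7.16% of all its peaks had no WT overlap, 10.8% in R342C (9.77% of all its peaks, and likewise in brackets for the others), 9.77% in S354F (8.83%), 9.50% in K365T (8.98%), 12.1% in R377C (10.9%), 12.7% in R377H (12.2%), 8.08% in Q418R (7.97%), 14.8% in R448Q (14.8%) and 14.2% in H455R (13.2%). With each mutant list as the set of sites and WT as the list searched, the length pattern was the same: at equal mutant strength, 75.4% of R448Q peaks in genes of 500 kb and over were found in WT, against 89.7% in genes under 20 kb, and in R342C 85.3% against 92.7%. Against gene ends the location pattern was the same as well. At equal mutant strength, gene-body minus gene-end was below 0 in all 9 lists, from -3.20 points in S354F to -5.96 in H455R. Against intergenic peaks the pattern was not the same. At equal mutant strength, mutant gene-body peaks were found in WT more often than mutant intergenic peaks in all 9 lists, by 0.69 points in R377C to 4.42 in R448Q. Without matching, R342C, S354F and R377C went the other way. R448Q had the lowest share of gene-body peaks of all lists, 45.6%, against 49.2% in WT. Among the 118774 strongest peaks of each list the shares were 44.4% in R448Q, 45.3% to 47.0% in the other mutants and 47.0% in WT.

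Peaks of a single list were chosen by strength. In Q418R the strongest gene-body peak that no other list overlapped lies in the myosin gene Myo5b (chr18:74566510-74567028), with a fold of 12.6. In R448Q it lies in Adk, the adenosine kinase gene (chr14:21143515-21143989), with a fold of 10.4, and in K365T in Tacc2 (chr7:130589972-130591182) with 8.36. H455R had one in Recql, R377H in Naip1, S354F in Gpatch1, R342C in D430042O09Rik and R339Q in Vwf, with folds of 7.42, 7.10, 6.66, 6.49 and 4.85. Peaks in no other list made up 1.11% of the gene-body peaks of R339Q and 4.95% of those of H455R, with the other mutants between. R339Q had the smallest mutant list, with 121032 peaks, and H455R the largest, with 159957. This share was not taken for all peaks of each list, so it does not single out gene bodies. Of 105066 merged gene-body regions of the mutant lists, 93 were in all 9 and not in WT, and 20 of these, 21.5%, lay in the chromosome 17 segment where the WT list held fewer peaks, against 1.06% of all the merged regions.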

How the data were processed

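Omni-ATAC-seq of 20 samples, 10 genotypes with 2 replicates each, was available as 1 combined peak list per genotype. Per the submitters' processing notes the build was mm10 and the tools were Bowtie2, MACS2, Trim Galore and deepTools. Versions, shifting of insertion sites and calling limits are not stated there. Each deposited list holds positions, names and 1 value per peak, taken to be a MACS2 fold enrichment because of its range and steps, a ratio to background that the authors computed. Read totals are unknown, and background coverage was derived from the steps of the fold values.

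From these lists, overlaps, classes and shares were computed with Python 3.11.15, numpy 2.4.6, pandas 2.3.3 and scipy 1.17.1, checked on simulated data. Each WT peak was placed in 1 of 20 strength bins. Genes came from RefSeq (GRCm38.p6). Shifted segments are runs of 3 or more 5 Mb bins, each with at least 50 peaks, whose peak number lies 0.2 (log2) or more from the median of the lists. Named genes were those with the most peaks, the strongest peaks, the largest excess or share missing among genes of at least 10 peaks, genes that kept all peaks, the strongest peak of each mutant alone, and list members with most peaks. Peaks missing from 1 list or from all 9 were named outside this rule. So were list members with fewer peaks than others of their list, among them Baz1b, Ep400, Nrg1, Ptprd, Axin2 and Braf. A few genes that the rule names are not reported here. The members and lists were chosen with earlier results of these data known. Alternatives varied overlap, list size, bins, distance, chromosomes, noncoding ends and gene assignment. Searching the middle of peaks, matching on width, leaving out promoter windows and taking mutant lists as sites were added after seeing the data.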

Additional observations from a re-analysis of the deposited data

How the results depend on the processing

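Gene-body minus gene-end and longest minus shortest class kept their sign in all 108 and 117 values over mutants and alternatives, whereas gene-body minus intergenic changed sign in 12 of 108 and most minus fewest peaks per gene in 17 of 117. Main medians over mutants were 70.2% found, -10.7 points against gene ends, -1.67 against intergenic, -9.63 for longest minus shortest, -0.54 for most minus fewest and 10.8% without a WT overlap. The cause of each change below was not tested.

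With 50% of a peak covered, the values were 66.2% found, -2.16 against intergenic and 12.9% without a WT overlap. With lists of equal size they were 78.3% found, -8.46, -0.86, -6.46 for length and 18.4% without overlap. With the stronger 80% of the other list they were 57.9% found, -7.23 against gene ends, -2.66 for length, 0.38 for most minus fewest and 21.1% without overlap. At 2 kb from gene ends they were -9.10 against gene ends and 0.35 for most minus fewest. On chromosomes without shifted segments they were 69.3% found, -0.99 against intergenic and 10.4% without overlap. With only the middle of each peak searched 68.8% were found. Matched on strength and width, the differences were -5.91, -2.26 and -4.75 for length. With mutant lists as the sites they were -4.55, 1.76 and -7.47 for length. Other numbers of strength bins (10 or 50), assigning shared peaks to the longest gene and leaving out promoter windows changed no sign in any mutant.

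By mutant, gene-body minus intergenic changed sign in S354F to -0.028 with 50% covered, -0.40 with the stronger 80% and -0.26 with width matched, in R377C to -0.39 with the stronger 80%, and in H455R to 0.10 on unshifted chromosomes. With mutant lists as the sites it was 1.45 in R339Q, 1.08 in R342C, 1.76 in K365T, 2.82 in R377H, 2.74 in Q418R, 4.42 in R448Q and 1.95 in H455R. Most minus fewest changed sign to 0.31 in R377C with equal lists. With the stronger 80% it became 0.21 in R339Q, 0.55 in R342C, 0.43 in K365T and 0.38 in R377C. At 2 kb it became 1.83 in R339Q, 1.16 in K365T, 0.35 in R377C and 0.15 in R377H. In R377H it became 0.52 on unshifted chromosomes and 0.14 with noncoding ends left out. With mutant lists as the sites it was 0.25 in R339Q, 0.75 in R342C, -1.34 in S354F, 1.60 in K365T, 1.12 in Q418R and -1.11 in H455R.

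No paired analysis was possible because the deposited lists combine both replicates, and leaving out a replicate was not run for the same reason. The part of depth in these values was not tested.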
